A study of Arabidopsis thaliana with 9 samples.

Results

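Pectin is the gel-forming polysaccharide of the plant cell wall, and the enzymes that modify it after it has reached the wall were examined here in Arabidopsis callus. Homogalacturonan, the main pectin, is secreted with methyl groups on its galacturonic acid units. Pectinesterases remove these methyl groups, which lets calcium cross-link the chains or exposes them to cleavage, and pectinesterase inhibitors bind the enzymes and block them. Acetylesterases remove acetyl groups, pectate lyases cut demethylated chains by elimination, and polygalacturonases cut them by hydrolysis. In shoot meristems demethylation of homogalacturonan is known to accompany the start of organ outgrowth.

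The 173 genes are the protein-coding rows, of 32833 rows in the count table, whose description contains pectinesterase, pectin lyase, pectate lyase, polygalacturonase or pectin acetylesterase. By their descriptions they fell into 62 pectinesterases, 10 pectinesterase inhibitors, 11 pectin acetylesterases, 26 pectate lyases, 16 polygalacturonases and 48 pectin lyase-like genes, the last named for a protein fold that pectate lyases, polygalacturonases and pectinesterases share. One gene described as a putative pectinesterase, AT4G38420, carries the symbol sks9, which belongs to a family of multicopper oxidases, and it was kept because the description met the rule. RNA came from callus of ecotype Col-0 in 3 genotypes with 3 libraries each: wild type, a pnet1 line labelled knockout, and a line that overexpresses PNET1, a protein of the nuclear envelope. All 9 samples started from hypocotyl pieces of dark-grown seedlings and had 4 days on callus induction medium and 10 days on shoot induction medium, with no further treatment. The sources used here do not give the promoter of the overexpression construct, the nature of the pnet1 lesion, the number of independent lines or the age of the seedlings. The labels do not say that replicates were separate cultures, so p-values reflect no more than the differences among these particular libraries, and part of that spread may be technical.

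PNET1 (AT1G07970, a match that rests on background knowledge) stood at 32.7, 31.4 and 28.9 CPM (counts scaled to library size with TMM factors) in wild-type libraries, 1.54, 1.12 and 1.37 in those of the mutant, and 4590, 4912 and 5215 in the overexpression line, which fits the labels. Libraries held between 16890848 and 19493969 counts, of which the 173 genes took 0.809% to 0.991%. On the first principal component of all tested genes, which held 71.4% of the variance, wild-type replicate 3 (-0.17) and overexpression replicate 1 (-20.4) lay closest to the mutant libraries (38.7 to 44.4) within their groups. Counts of changed genes are therefore given with and without this pair. Marker genes of other cell types also differed between the genotypes. The 5 epidermis markers summed to 383 to 513 CPM in wild-type callus, 170 to 212 in the mutant and 546 to 731 in overexpression, and edgeR called 5 of 5 lower in the mutant. The 4 green leaf markers summed to 1570 to 2075 CPM, 703 to 793 and 2085 to 2965 in the same order, with 4 of 4 lower in the mutant, whereas the 4 phloem markers rose from 176 to 211 CPM in wild-type callus to 290 to 324 in the mutant, with 4 of 4 called higher. The 5 callus and pluripotency markers were present in every library (559 to 600, 685 to 734 and 541 to 588 CPM), 3 of them higher and 1 lower in the mutant. Of 4 xylem and fibre markers 1 was called higher there, and of 2 tested root cap and root hair markers 0 were called. Among all tested genes 17.4% were lower and 12.6% higher in the mutant. In overexpression against wild type, edgeR called 0 of 5 epidermis, 0 of 4 green leaf and 0 of 4 phloem markers. Of the callus and pluripotency markers 1 was higher and 1 lower in that comparison. Pollen markers summed to 8.21 to 11.3 CPM over all libraries, and 2 of 4 had no count. The part of these shifts in the results below was not tested, and in whole tissue fewer cells of a type and less RNA per cell cannot be told apart.

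Of the 173 genes, 82 had enough counts in callus to be tested, where 19698 of the 32833 rows of the table had (26 pectinesterases, 6 inhibitors, 9 acetylesterases, 16 pectate lyases, 7 polygalacturonases and 18 pectin lyase-like genes), and they held 99.952% of the counts of the group. The 91 genes left untested included 45 with no count in any library and 46 with counts, of which the highest, PME42 (AT4G03930), had 69 over all 9 libraries. Several genes with known roles in reproduction were among the untested ones: QRT1, which is needed for pollen tetrads to separate, had 18 counts in all, and ADPG2, a polygalacturonase of pod opening and organ shedding, had 12. PGX1, a polygalacturonase of cell expansion, had 50 and HMS, a pectinesterase of the embryo, had 42. The main fit left out genes with such totals, so it did not test a difference between genotypes for them.

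Per transcript length, pectate lyases made up most of the summed level. In FPKM as deposited (fragments scaled to gene length and library size), they held 57.2% of the summed FPKM of the 173 genes in wild-type callus, 60.6% in mutant callus and 51.9% in overexpression. Pectinesterases followed with 24.7%, 21.6% and 28.4%. Acetylesterases held 7.30%, 7.60% and 8.13%, and each other class held under 5% in every group. The classes did not move alike. Summed pectinesterase FPKM was 1302, 1279 and 1240 in wild-type libraries, 990.5, 1133 and 1062 in the mutant, and 1245, 1346 and 1193.5 in overexpression. The mutant libraries lay below all others, a log2 ratio of -0.26 against wild type, while overexpression overlapped with wild type (-0.01). Pectate lyases showed the other arrangement: their sum was 2823, 2982 and 3046 in wild-type libraries, 2886, 3023 and 3003 in the mutant, and 2408, 2384 and 2127 in overexpression. Here mutant and wild type overlapped (0.01) and overexpression lay below both (-0.36 against wild type). Pectin lyase-like genes summed to 143 to 158 FPKM in wild type and were lower in all mutant libraries (119 to 127, log2 ratio -0.30) and higher in all overexpression libraries (159 to 183, 0.17). These sums are a description and carry no test.

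**Figure D1:**
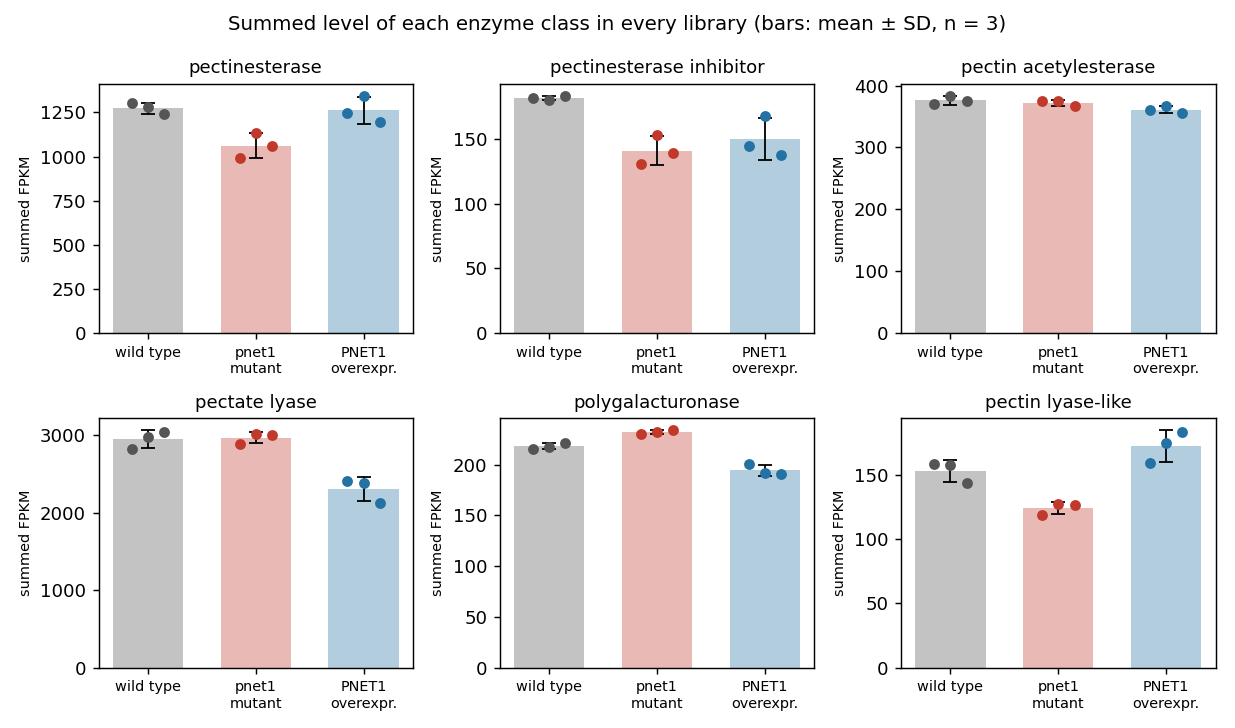
Summed FPKM of each enzyme class (vertical axis, from 0) in the 9 libraries; points are libraries, bars the mean of 3 and error bars the SD. Pectinesterases are lowest in the mutant (990.5 to 1133), pectate lyases are lowest in overexpression (2127 to 2408), and acetylesterases stay between 356 and 384 in every library.

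Against wild type, 8 genes were called higher and 40 lower in the mutant (edgeR, adjusted p under 0.05 over 19698 genes), or 48 of 82 tested, where 30.0% of all tested genes were called, 12.6% higher and 17.4% lower. At least 2-fold falls numbered 13, beside 5.16% of all genes, and no member was called with a 2-fold rise, beside 0.401%; edgeR at an unadjusted p under 0.05 and DESeq2 also gave 0 such rises. The median log2 fold change was -0.20 for the tested members and 0.00 for all tested genes. The 3 mutant libraries lay wholly below the 3 of wild type for 44 genes and wholly above for 10, beside 24.2% and 21.1% of all genes. Without wild-type replicate 3 and overexpression replicate 1 the calls were 10 higher and 34 lower. Overexpression differed less from wild type, with 11 members higher and 10 lower, or 21 of 82, where 11.2% of all genes were called (5.97% higher, 5.24% lower), and none of the 21 changed 2-fold, beside 0.198% of all genes with a 2-fold rise and 0.147% with a 2-fold fall; by the unadjusted p and by DESeq2 that number was likewise 0. The overexpression libraries lay wholly above wild type for 15 members and wholly below for 19, beside 14.0% and 14.3% of all genes. The count of 11 was 4 without wild-type replicate 3 or without overexpression replicate 3, 6 without overexpression replicate 2, and 7 without mutant replicate 1 or replicate 3, which also enter the estimate of spread. The count of 10 was 4 without wild-type replicate 3. Without the pair named above the counts were 11 and 9. Between the lines themselves, overexpression had 39 members higher and 21 lower than the mutant (43.5% of all genes called, 23.0% higher and 20.6% lower), or 36 and 19 without the pair. Of these, 21 were at least 2-fold higher and 2 at least 2-fold lower, beside 9.01% and 1.7% of all genes. The 2 groups did not overlap for 62 members, beside 53.5% of all genes. The 3 comparisons share libraries, so their values are set side by side and not correlated.

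**Figure D2:**
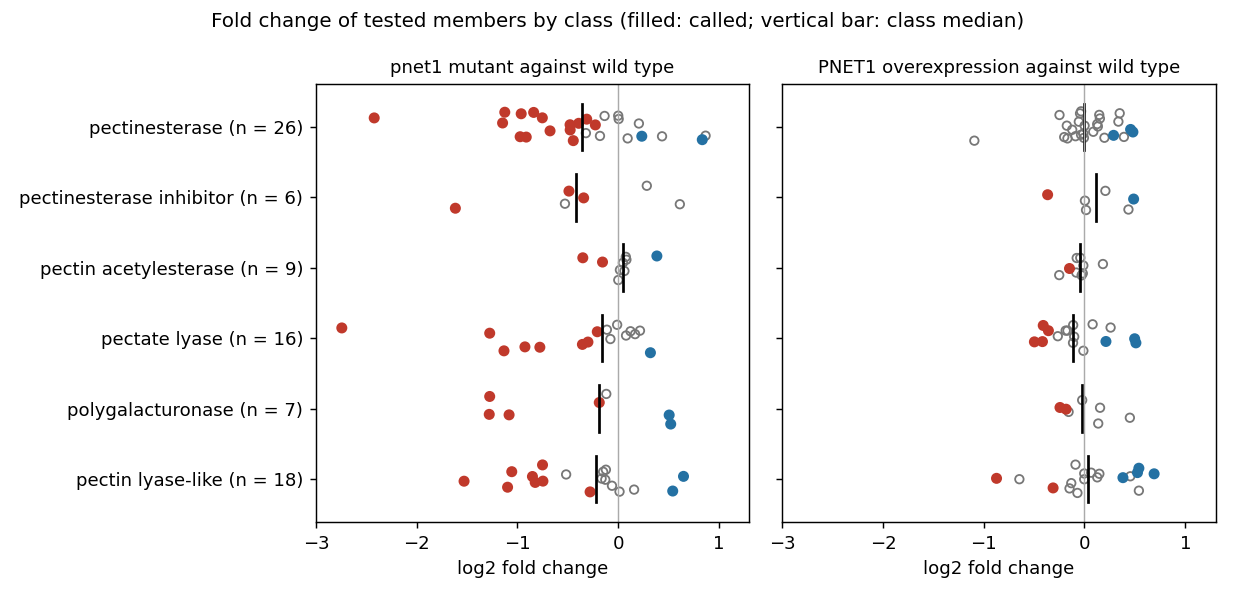
Log2 fold change (horizontal axis) of the 82 tested members by class for the mutant (left) and overexpression (right), each against wild type; filled points were called by edgeR, red lower and blue higher, and black bars are class medians. In the mutant the pectinesterases lie furthest to the left as a class with many members (median -0.36, 15 of 26 called lower, beside 17.4% of all genes), and the overexpression values lie closer to 0.

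Pectinesterases fell in the mutant more often than they rose: 15 of 26 tested were lower and 2 higher (57.7% and 7.69%, beside 17.4% and 12.6% of all genes). The 3 largest falls were those of PME17, PME44 and PME53. PME17 (AT2G45220), which acts in root growth and is induced by pathogens, had 24.8, 12.0 and 6.91 CPM in wild-type callus, 1.65, 2.01 and 4.45 in the mutant, and 12.4, 17.5 and 25.5 in overexpression. Its mutant libraries lay below all others, but wild type alone spanned more than a 3-fold range (SD 9.23, n = 3). The log2 fold change was -2.42 ± 0.69 (SE, edgeR adjusted p = 0.041). This call was lost without any one of wild-type replicates 1 and 2, mutant replicates 1, 2 and 3, and overexpression replicates 1 and 2. It was also lost with no low-count filter, with only 2 genotypes in the fit or with a block for the replicate number. The edgeR adjusted p was up to 0.13 over these alternatives. PME44 (AT4G33220) fell from 46.1, 42.8 and 34.6 CPM to 17.9, 18.6 and 19.3, a log2 fold change of -1.15 ± 0.12 (edgeR adjusted p = 6.6e-05). PME25 (AT3G10720) fell from 63.8, 72.9 and 64.1 CPM to 32.0, 36.5 and 34.4 (log2 -0.96, edgeR adjusted p = 2.0e-06). In both, no mutant library reached a wild-type one.

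The most abundant pectinesterases changed by smaller amounts and in both directions. PME32 (AT3G43270), with the highest FPKM of the class, had 752, 793 and 752 CPM in wild-type callus and 610, 705 and 647 in the mutant. Its fall of 0.23 (log2, SE 0.08, edgeR adjusted p = 0.044) was lost without any one of the 3 wild-type libraries, mutant replicate 1 or 3, or overexpression replicate 1, and also without the pair and with no low-count filter. PME41 (AT4G02330), which is linked to chilling tolerance, fell from 475, 431 and 427 CPM to 286, 343 and 329 (log2 -0.48, edgeR adjusted p = 0.0042). PME2 (AT1G53830) fell by 0.39 (edgeR adjusted p = 0.014, lost without wild-type replicate 1 and without the pair). Against these, PME3 (AT3G14310), which acts in adventitious rooting, rose from 427, 424 and 426 CPM to 501, 509 and 493 in the mutant (log2 0.23 ± 0.04, edgeR adjusted p = 1.4e-04) and was at 408, 410 and 411 in overexpression. The mutant libraries were all higher than the other 6. PME22 (AT3G05620) rose most among the called members of all classes, from 5.97, 4.49 and 6.38 CPM to 10.2, 9.45 and 10.5 (log2 0.83 ± 0.13, edgeR adjusted p = 1.7e-04). The 28 pectinesterases described with an inhibitor part, an amino-terminal domain removed from the mature enzyme, included 13 tested genes. Of these, 8 fell and 2 rose in the mutant (61.5% and 15.4%, beside 17.4% and 12.6% of all genes). The other 34 had 13 tested, of which 7 fell (53.8%) and none was called higher by edgeR (1 at an unadjusted p under 0.05, 0 by DESeq2). PME35, a pectinesterase of stem fibres, was not called in the mutant (log2 0.20, edgeR adjusted p = 0.081; called without wild-type replicate 3), nor was PME31, linked to salt tolerance (log2 -0.14, edgeR adjusted p = 0.19).

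In overexpression, 3 of 26 tested pectinesterases rose (11.5%, beside 5.97% of all genes). None of the 26 was called lower by edgeR (1 at an unadjusted p under 0.05, 0 by DESeq2, beside 5.24% of all genes). The rises were PME5 (log2 0.48), PME53 (0.46) and PME34 (0.29), all of which also fell in the mutant and are described with the genes of that pattern. PME44 and PME25 were not called in overexpression by the main fit, but were called in 5 and 4 alternatives. Without a call, 5 of the 26 (beside 14.3% of all genes) had overexpression libraries wholly below wild type, among them PME3 (log2 -0.06) and PME32 (-0.20, edgeR adjusted p = 0.12; called without overexpression replicate 2).

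Pectinesterase inhibitors were led by 1 gene. PMEI9 (AT1G62770) held 90.8% of the summed FPKM of the class, and it was lower in both lines: 164, 161 and 169 CPM in wild-type callus, 121, 140 and 129 in the mutant, and 125, 145 and 113 in overexpression. Every library of either line lay below every wild-type library. The log2 fold changes were -0.34 in the mutant (edgeR adjusted p = 0.0076) and -0.37 in overexpression (edgeR adjusted p = 0.017); the second call was lost without wild-type replicate 3, and both were lost without the pair of libraries that stood apart. PMEI11 (AT3G47380), an inhibitor linked to resistance against the grey mould fungus, fell from 7.58, 7.84 and 5.63 CPM to 2.74, 2.42 and 1.7 in the mutant (log2 -1.62 ± 0.19, edgeR adjusted p = 1.2e-05) and had 8.10, 10.9 and 9.49 in overexpression, above each wild-type library but not called (log2 0.44, edgeR adjusted p = 0.082; called without overexpression replicate 1). The summed CPM of the class had log2 ratios of -0.38 in the mutant and -0.27 in overexpression against wild type. Without PMEI9 these ratios were -0.72 and 0.39. PMEI10, PMEI2 and PMEI6, all under 3 CPM on average in each group, were not called against wild type.

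Of 9 tested pectin acetylesterases, 1 rose and 2 fell in the mutant (11.1% and 22.2%, beside 12.6% and 17.4% of all genes), shares near the background, and the summed FPKM of the class had a log2 ratio of -0.01 to wild type. PAE4 (AT3G09405) rose from 34.8, 33.9 and 36.6 CPM to 46.8, 45.8 and 44.8 (log2 0.38 ± 0.09, edgeR adjusted p = 0.0033), and its overexpression libraries had 34.7, 28.8 and 25.1 (called lower without overexpression replicate 1). PAE11 (AT5G45280) fell from 91.3, 87.5 and 86.3 CPM to 67.8, 75.3 and 64.8 (log2 -0.35 ± 0.06, edgeR adjusted p = 1.6e-04) and had 82.7, 91.2 and 86.2 in overexpression, which overlapped with wild type. PAE12 (AT3G05910) fell by 0.16 (edgeR adjusted p = 0.011), a call lost without wild-type replicate 2 or mutant replicate 1. PAE7 (AT4G19410), the most abundant member per length, was at 226, 243 and 240 CPM in wild-type callus and 252, 244 and 236 in the mutant, which overlapped; it shares 1097 bases with AT4G19400 on the same strand, so its counts may be incomplete. PAE9 (AT5G23870), known to remove acetyl groups from leaf pectin, was not called (log2 0.06). PAE10 was called lower in overexpression (log2 -0.15, edgeR adjusted p = 0.046), and that call was lost in 15 alternatives, among them each of the other scalings and DESeq2.

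Over all classes, 11 tested members had 100 FPKM or more, of which 6 were called lower and 0 higher in overexpression than in wild type. Of 30 members at 10 to 100 FPKM, 3 were lower and 8 higher, and of 41 under 10 FPKM, 1 was lower and 3 higher. Among all tested genes, whatever their level, 5.24% were lower and 5.97% higher. No share was taken for all genes at 100 FPKM or more. Pectate lyases split by abundance within this same pattern, since their 4 most abundant genes are among the 6 above. The 4 with the highest FPKM (AT4G24780, AT3G27400, AT1G04680 and AT3G53190) held 54.0% of the summed FPKM of all 173 genes in wild-type callus, 58.1% in mutant callus and 47.6% in overexpression, and edgeR called each of them lower in overexpression. AT4G24780 had 1930, 1941 and 2054 CPM in wild-type callus, 2062, 2070 and 2122 in the mutant, and 1612, 1586 and 1426 in overexpression (log2 -0.36 ± 0.05 against wild type, edgeR adjusted p = 2.9e-04). AT3G27400 had 1611, 1742 and 1738 CPM in wild-type callus and 1361, 1344 and 1108 in overexpression (log2 -0.42, edgeR adjusted p = 0.0063), and AT1G04680 had 721, 819 and 819 against 576, 574 and 522 (log2 -0.50, edgeR adjusted p = 1.7e-04). In all 3 the overexpression libraries were the lowest, and none was called in the mutant (log2 0.08, -0.08 and -0.11), although AT1G04680 was without wild-type replicate 1. AT3G53190 had 593, 645 and 682 CPM in wild-type callus, rose to 804, 796 and 796 in the mutant (log2 0.32 ± 0.06, edgeR adjusted p = 5.5e-04) and fell to 527, 459 and 459 in overexpression (log2 -0.41, edgeR adjusted p = 7.0e-04). Its 3 groups did not overlap.

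The other 22 pectate lyases summed to 166, 172 and 155 FPKM in wild-type libraries, 117, 125 and 120 in the mutant, and 181, 193 and 189.7 in overexpression, log2 ratios of -0.44 and 0.19 against wild type, where the sum of the 4 abundant genes had 0.03 and -0.40. The largest fall was that of AT5G55720, from 1.61, 0.898 and 1.01 CPM to 0, 0.118 and 0.385 in the mutant (log2 -2.74 ± 0.57, edgeR adjusted p = 0.0014); it rests on 0 to 7 counts in a mutant library. AT5G63180 fell from 45.6, 47.9 and 36.8 CPM to 15.6, 20.5 and 17.6 (log2 -1.28, edgeR adjusted p = 1.0e-04) and AT1G67750 from 46.8, 50.2 and 38.6 to 18.8, 20.9 and 22 (log2 -1.13, edgeR adjusted p = 2.2e-05). No mutant library overlapped with wild type in these 3. AT3G07010 fell by 0.93 and AT5G48900 by 0.78 (edgeR adjusted p = 0.0012 and 1.8e-05), and neither was called in overexpression, although AT3G07010 was without wild-type replicate 2. Over the whole class, 8 of 16 tested pectate lyases fell and 1 rose in the mutant (50.0% and 6.25%, beside 17.4% and 12.6% of all genes). In overexpression 4 fell and 3 rose (25.0% and 18.8%, beside 5.24% and 5.97%).

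**Figure D3:**
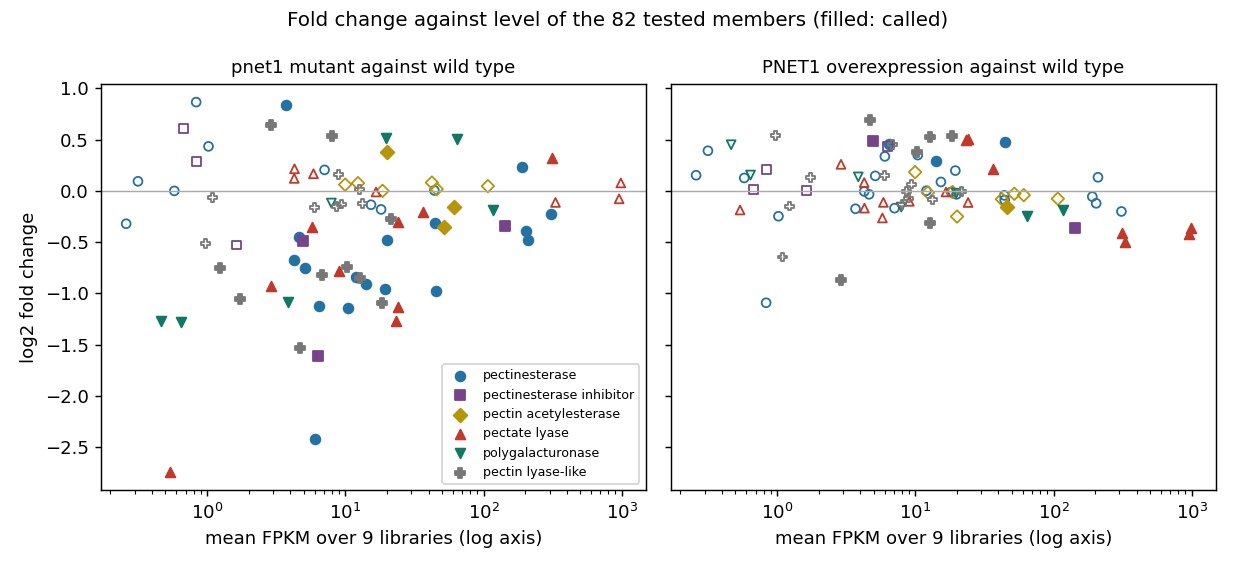
Log2 fold change (vertical axis) against mean FPKM over 9 libraries (horizontal log axis) for the 82 tested members, with the mutant left and overexpression right; markers give the class and filled ones were called. The 4 pectate lyases at the right of the overexpression panel lie between -0.50 and -0.36, while the calls above 0 there belong to genes under 100 FPKM.

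Genes described as polygalacturonases held 2 rises and 4 falls among 7 tested members in the mutant (28.6% and 57.1%, beside 12.6% and 17.4% of all genes). The class follows the descriptions and need not hold every polygalacturonase: PGX1, untested here, is counted with the pectin lyase-like genes. Differences between these classes are therefore not differences between separate enzyme families. AT3G15720 rose from 103, 108 and 116 CPM to 161, 151 and 151 (log2 0.51 ± 0.06, edgeR adjusted p = 5.4e-05) and had 103, 84.8 and 88.9 in overexpression (log2 -0.24, edgeR adjusted p = 0.029, a call lost without wild-type replicate 2 or 3 or overexpression replicate 2 or 3, with library totals as the scaling and with only 2 genotypes in the fit). PGL1, PGL2 and PGL3 resemble the non-catalytic beta subunit first described in tomato polygalacturonase, and they moved in different directions. PGL3 (AT1G70370) held 54.6% of the class FPKM and was lower in both lines: 314, 318 and 314 CPM in wild-type callus, 262, 284 and 284 in the mutant, and 283, 284 and 267 in overexpression. Its wild-type libraries were all above the other 6 (log2 -0.19 and -0.18, edgeR adjusted p = 0.0030 and 0.013), and the second call was lost without wild-type replicate 3 or overexpression replicate 3. PGL2 (AT1G60390) rose from 40.9, 35 and 38.1 CPM to 55.2, 52.0 and 56.5 in the mutant (log2 0.52 ± 0.07, edgeR adjusted p = 4.5e-05). PGL1 (AT1G23760) fell from 1.45, 1.92 and 2.07 CPM to 0.685, 0.945 and 0.604 (log2 -1.28 ± 0.29, edgeR adjusted p = 0.0025). PGX3 (AT1G48100), a polygalacturonase of stomatal guard cells, fell from 9.24, 10.9 and 6.33 CPM to 3.71, 4.84 and 3.90 (log2 -1.08 ± 0.26, edgeR adjusted p = 0.011, lost without mutant replicate 1); it shares 802 bases with a long noncoding RNA on the opposite strand. QRT2 (AT3G07970), which acts in pollen separation, fell by 1.28 (edgeR adjusted p = 0.028) on 4 to 19 counts per library in these groups, and the call was lost in DESeq2, without wild-type replicate 1 or 3, without mutant replicate 1 or 3 and without the pair. The summed CPM of the class had a log2 ratio of 0.05 in the mutant against wild type, and of 0.39 without PGL3.

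Among the 18 tested pectin lyase-like genes, 8 fell and 2 rose in the mutant (44.4% and 11.1%, beside 17.4% and 12.6% of all genes). In overexpression 4 rose and 2 fell (22.2% and 11.1%, beside 5.97% and 5.24%). AT1G60590 fell from 12.1, 11.4 and 7.81 CPM to 3.14, 4.13 and 3.57 (log2 -1.53 ± 0.22, edgeR adjusted p = 4.5e-04), AT4G23820 from 34.5, 36.4 and 26.3 to 14.7, 14.6 and 16.0 (log2 -1.10 ± 0.16, edgeR adjusted p = 8.8e-04) and AT2G43870 from 2.75, 3.65 and 3.14 to 1.83, 1.48 and 1.26 (log2 -1.06 ± 0.21, edgeR adjusted p = 0.0011). In each the mutant libraries were the lowest of the 9. AT3G16850, the most abundant member per length, fell by 0.28 (edgeR adjusted p = 0.0027). AT1G70500 moved the other way, from 4.62, 4.91 and 5.10 CPM in wild-type callus to 6.39, 7.56 and 8.95 in the mutant and to 3.33, 1.66 and 2.97 in overexpression. These groups did not overlap, and both differences were called (log2 0.65 and -0.87, edgeR adjusted p = 0.011 and 0.013), the first lost without mutant replicate 3 and the second without wild-type replicate 3 or overexpression replicate 2. QRT3, which separates pollen tetrads, was not called against wild type in the mutant (log2 -0.06) or in overexpression (-0.65, edgeR adjusted p = 0.077; called without overexpression replicate 3).

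**Figure D4:**
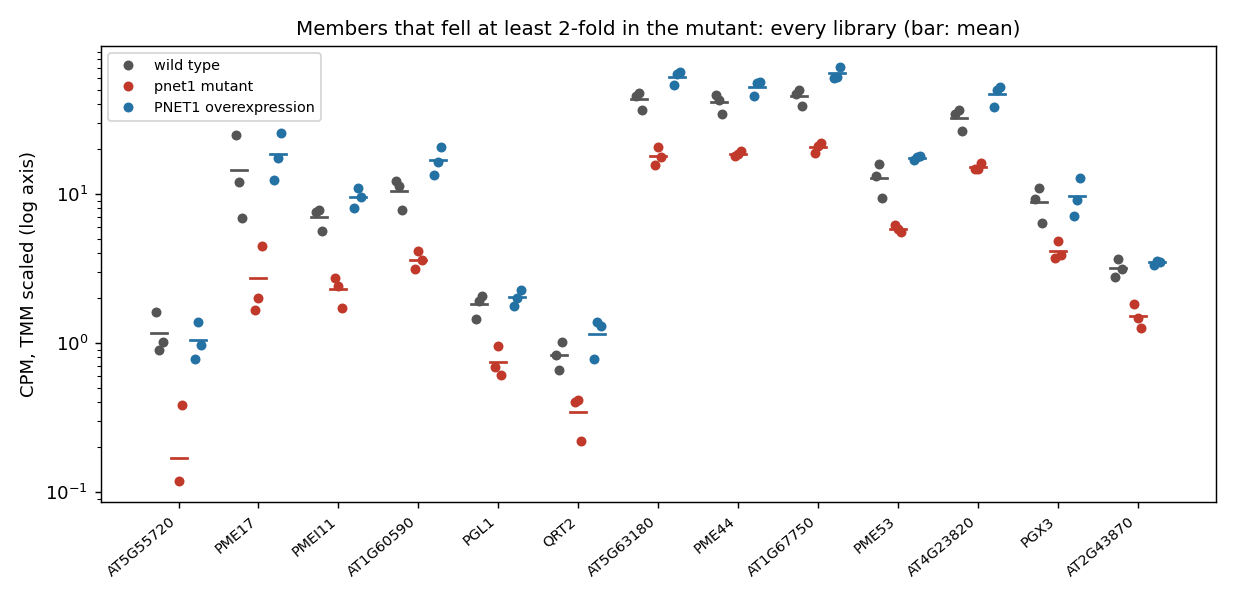
CPM (log axis) in every library of the 13 members that fell at least 2-fold in the mutant, ordered by fold change, with the group mean as a bar; a library at 0 CPM, present for AT5G55720 in the mutant, is not drawn. Mutant libraries lie below all wild-type libraries in each gene, and PME17 has the widest spread within wild type.

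Across the classes 11 genes were called lower in the mutant and also higher in overexpression: the pectinesterases PME5, PME34 and PME53, the inhibitor PMEI7, the pectate lyases PMR6, AT1G67750 and AT5G63180, and the pectin lyase-like genes AT1G10640, AT1G60590, AT3G61490 and AT4G23820. This was 11 of 82 tested members, beside 3.94% of all tested genes, and the 2 comparisons share wild type. All 11 were called higher in overexpression than in the mutant, by 0.42 to 2.22 on the log2 scale, in a comparison that shares both lines. PME5 (AT5G47500, chr5:19270944-19272892 on the minus strand in TAIR10, described in the table as pectinesterase 68) is a pectinesterase known for its effect on organ formation at the shoot apex when its level is changed. It had 71.6, 71.5 and 60.3 CPM in wild-type callus, 34.5, 36.4 and 32.7 in the mutant, and 92.4, 89.2 and 102 in overexpression. Its 3 groups did not overlap. The log2 fold changes were -0.97 ± 0.07 (edgeR adjusted p = 9.3e-07) and 0.48 ± 0.07 (edgeR adjusted p = 8.8e-04).

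PME34 (AT3G49220), a pectinesterase of guard cells, had 62.4, 69.0 and 54.6 CPM in wild-type callus, 32.0, 35.9 and 30.9 in the mutant, and 69.6, 79.4 and 78.0 in overexpression. PME53 (AT5G19730) had 13.1, 15.9 and 9.36, then 6.16, 5.79 and 5.55, then 16.7, 17.7 and 18.0 in the same order. PMR6 (AT3G54920), a pectate lyase that powdery mildew needs to infect, changed least of the 11, with 80.4, 84.3 and 77.2 CPM, then 69.5, 70.9 and 69.0, then 92.6, 96.3 and 91.4. None of these 3 had overlapping groups. PMEI7 (AT4G25260), an inhibitor known to act on PME3, had 7.79, 8.02 and 6.17 CPM, then 4.85, 6.02 and 4.78, then 10.4, 9.10 and 11.2; it shares 306 bases with PCMP-E53 on the same strand. Its groups did not overlap either. In 11 of the 11, wild-type replicate 3 was the lowest of its group. Several of the calls in overexpression rested on single libraries: the call of AT1G60590 was lost without wild-type replicate 2 or 3, any mutant replicate or overexpression replicate 2 or 3, that of AT4G23820 without wild-type replicate 1 or 3, any mutant replicate or overexpression replicate 2 or 3, that of PME53 likewise, and that of PME34 likewise except for mutant replicate 2. Those of AT5G63180 (overexpression replicate 2 or 3), PMEI7 and AT3G61490 (each wild-type replicate 3 or overexpression replicate 3) and PMR6 (wild-type replicate 3) rested on fewer libraries, and those of PME5, AT1G67750 and AT1G10640 were kept whichever library was left out. With only 2 genotypes in the fit the overexpression calls of AT1G60590, AT4G23820, AT1G10640, PME34 and PME53 were lost, with no low-count filter those of AT1G60590, AT4G23820, AT5G63180 and PME34, and without the pair those of PME53 and PMEI7. A block for the replicate number lost those of AT1G60590 and AT4G23820. The mutant call of PMEI7 was lost without wild-type replicate 1 or 2 or mutant replicate 1 or 3.

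**Figure D5:**
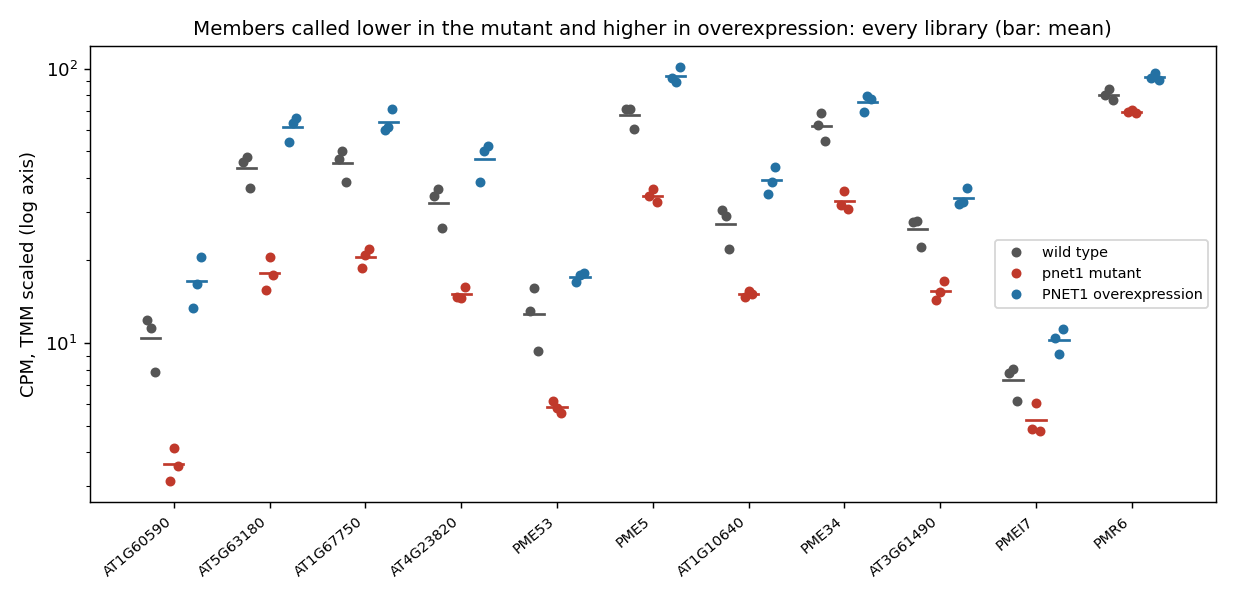
CPM (log axis) in every library for the 11 members called lower in the mutant and higher in overexpression, ordered by the difference between the lines; bars are means of 3 libraries. For each gene the mutant libraries lie below and the overexpression libraries above wild type, and the lowest wild-type point is replicate 3 in 11 of the 11.

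The 250 bases before the annotated start of each gene were read from the reference genome (RefSeq, TAIR10.1) for these 11 genes, since they moved together. Searched on both strands, the hexamer TGTCTC, the core of the auxin response element, was present in 3 of the 11 windows (27.3%), in 7 of the 40 of members lower in the mutant (17.5%) and in 10.9% of 27443 windows of all protein-coding genes. The same hexamer was in 13 of the 82 tested members (15.9%) and in 6 of the 42 tested members not lower in the mutant (14.3%). The epidermal L1 box, searched as TAAATGNA, was in 1 of the 11, in 3 of the 40 (7.5%) and in 9.91% of all windows. The G-box CACGTG was in 1 of the 11, in 2 of the 40 (5.0%) and in 6.49% of all. The windows of PME5 and PME53, which hold TGTCTC and overlap no other gene, and that of AT5G63180, which holds the G-box, are shown 5′ to 3′ on the strand of the gene with the motif in capitals, and they lie at chr5:19272893-19273142 (minus strand), chr5:6670025-6670274 (plus strand) and chr5:25343370-25343619 (minus strand). In PME5 the match is on the other strand, so that it reads GAGACA, and begins 59 bases before the start; in PME53 it begins 105 and in AT5G63180 185 bases before the start. A match describes letters in the window and is no evidence of binding.
PME5: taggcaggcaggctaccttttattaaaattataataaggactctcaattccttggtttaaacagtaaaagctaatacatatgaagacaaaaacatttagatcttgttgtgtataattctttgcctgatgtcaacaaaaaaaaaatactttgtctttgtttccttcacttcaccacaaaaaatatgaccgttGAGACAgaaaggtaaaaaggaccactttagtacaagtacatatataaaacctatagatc
PME53: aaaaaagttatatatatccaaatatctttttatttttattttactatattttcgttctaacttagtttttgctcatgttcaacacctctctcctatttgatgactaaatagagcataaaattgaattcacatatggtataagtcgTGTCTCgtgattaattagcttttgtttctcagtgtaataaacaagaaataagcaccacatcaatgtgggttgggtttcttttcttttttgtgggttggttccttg
AT5G63180: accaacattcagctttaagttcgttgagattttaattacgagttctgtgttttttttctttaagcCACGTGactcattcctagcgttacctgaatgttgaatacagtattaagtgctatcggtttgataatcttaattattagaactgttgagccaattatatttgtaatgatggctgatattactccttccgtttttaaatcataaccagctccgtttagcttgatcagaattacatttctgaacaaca

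The reverse pattern, higher in the mutant and lower in overexpression, was found for 3 genes, AT3G53190, AT1G70500 and AT3G15720, described with their classes. PMEI9 and PGL3 were lower in both lines, 27 genes were lower only by the call in the mutant, 5 higher only there, 5 lower only by the call in overexpression, and 29 were called in neither. A call in one comparison and not in the other was not tested as a difference.

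Many of the genes lie side by side. In the annotation 28 pairs of members were direct neighbours, 27 of them of one class, and they involved 50 of the 173 genes. Both genes were tested in 5 pairs. PME2 and PME1 (AT1G53840) are 320 bases apart on the plus strand of chromosome 1: PME2 fell by 0.39 in the mutant, whereas PME1, with 97.9, 98.3 and 102 CPM in wild-type callus and 95.3, 102 and 102 in the mutant, was not called (log2 0.00). PAE4 rose in the mutant (0.38) while its neighbour PAE5, which overlaps it by 37 bases, was not called (0.00, with 35.9, 35.3 and 33.5 CPM against 35.1, 33.5 and 36.0). PME40 (log2 -0.84, edgeR adjusted p = 1.4e-04) and PME41 (-0.48) both fell. PME25 fell (-0.96) next to PME24, which had under 1 CPM in every library, and PMEI9 fell next to PMEI10, which was not called (-0.53, edgeR adjusted p = 0.27). Differences between the 2 genes of a pair were not tested.

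Genes that build pectin were read from fixed lists. Of 17 tested genes for the synthesis and methylation of homogalacturonan, 5 fell in the mutant (29.4%, beside 17.4% of all genes). The main fit called none higher there (1 at an unadjusted p under 0.05, 0 by DESeq2, beside 12.6% of all genes). GAUT15 lay wholly above wild type in the mutant without a call (log2 0.16, edgeR adjusted p = 0.060). It was called higher in 5 alternatives, among them library totals as the scaling and only 2 genotypes in the fit. In overexpression 1 fell (5.88%, beside 5.24% of all genes). QUA2, a putative pectin methyltransferase, fell from 105, 101 and 98.3 CPM to 73.5, 84.5 and 73.4 (log2 -0.40, edgeR adjusted p = 2.7e-04), QUA1, a galacturonosyltransferase-like protein, fell by 0.20 (edgeR adjusted p = 0.0012) and GAUT13 by 0.21 (edgeR adjusted p = 0.031, lost in DESeq2, with library totals as the scaling, without wild-type replicate 3, without mutant replicate 1 or 3 and without the pair); GAUT15 was lower in overexpression (-0.32, edgeR adjusted p = 0.0045). Of 12 tested genes for nucleotide sugars, 4 fell and 2 rose in the mutant (33.3% and 16.7%, beside 17.4% and 12.6% of all genes), and 2 fell in overexpression, UGD2 and RHM3 (log2 -0.21 each, edgeR adjusted p = 0.0032 and 0.013; 16.7%, beside 5.24%). GAE6, which makes UDP-galacturonic acid, fell from 293, 291 and 277 CPM to 216, 228 and 221 (log2 -0.37, edgeR adjusted p = 3.1e-05), and UGD4, which makes the precursor of that sugar, fell by 0.28, while GAE5 rose by 0.29. Rhamnogalacturonan synthesis had 1 rise (ARAD2, 0.31) and 1 fall (RGXT2, -0.66) among 8 tested, and 1 rise in overexpression (XGD1, 0.50). All 3 calls rested on single libraries: that of ARAD2 was lost in DESeq2, with no low-count filter and without wild-type replicate 1 or 2, any mutant replicate or overexpression replicate 2, that of RGXT2 in DESeq2 and without wild-type replicate 1 or 2 or mutant replicate 1 or 3, and that of XGD1 without wild-type replicate 3, without overexpression replicate 3 and without the pair. In the mutant the shares, 12.5% each, lay near the 12.6% higher and 17.4% lower of all genes. The 1 rise in overexpression was likewise 12.5%, beside 5.97% of all genes.

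Proteins that bind pectin or act on pectinesterases also included falls. Of 5 tested receptor kinases, 2 fell in the mutant, beside 17.4% of all genes. These were WAK1 (log2 -0.84, edgeR adjusted p = 0.030) and WAK2 (-0.67, edgeR adjusted p = 0.021), which bind pectin at the plasma membrane. Both calls were lost with a block for the replicate number in the fit. That of WAK1 was also lost with no low-count filter, with only 2 genotypes in the fit and without mutant replicate 1 or 2 or overexpression replicate 1. That of WAK2 was also lost without wild-type replicate 1 or mutant replicate 1 or 3. BDX (AT4G32460), a wall protein that promotes pectinesterase activity, was the 1 of 4 regulators called in the mutant (25.0% lower, beside 17.4% of all genes). It fell from 45.7, 55.4 and 36.3 CPM to 22.8, 24.7 and 19.3 (log2 -1.04 ± 0.19, edgeR adjusted p = 0.0058). In overexpression it had 43.9, 54.6 and 58.5 CPM, which overlapped with wild type. In a further 51 genes of the family of invertase and pectin methylesterase inhibitors, 11 were tested, of which 3 fell (AT3G62820, AT3G17130 and AT5G20740) and 2 rose (AT4G12390 and AT1G14890) in the mutant, or 27.3% and 18.2% beside 17.4% and 12.6% of all genes; in overexpression 1 rose and 2 fell (9.09% and 18.2%, beside 5.97% and 5.24%). AT5G20740 fell from 12.3, 14.2 and 11.3 CPM to 4.96, 5.31 and 6.15 and rose to 18.7, 19.3 and 18.9 in overexpression (log2 -1.20 and 0.59, edgeR adjusted p = 2.0e-06 and 0.0016), with no overlap between its groups. AT4G12390, described as pectin methylesterase inhibitor 1, went the other way, from 44.8, 46.9 and 50.4 CPM to 71.2, 66.0 and 71.0 in the mutant and 38.1, 32.3 and 30.1 in overexpression (log2 0.55 and -0.50, edgeR adjusted p = 4.5e-05 and 0.0012), also without overlap. The rhamnogalacturonan lyases, which cut the branched part of pectin, had 2 rises among 4 tested in the mutant (50.0%, beside 12.6% of all genes). These were AT1G09880 (log2 1.0, edgeR adjusted p = 0.0017) and AT2G22620 (0.68, edgeR adjusted p = 0.0043). No gene of this list was called lower (0 at an unadjusted p under 0.05 and 0 by DESeq2, beside 17.4% of all genes).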

How the data were processed

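Messenger RNA was sequenced as read pairs from 9 callus libraries, 3 per genotype, with strand-specific libraries per the labels' protocols. The authors deposited a table of raw counts per gene and a table of FPKM values, whose values were checked to equal the deposited count over gene length and a library constant. HISAT2 2.0.4, HTSeq 0.6.1p1 and the TAIR10 build are named in the submitters' processing notes. The annotation release and the strand setting of the counting are items not given in the sources used here, and for genes that overlap another on the opposite strand the reads of both may not be told apart. All 173 members have the same start and end in the reference annotation TAIR10.1. The members and lists were chosen with earlier results of these data known.

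Counts were fitted in edgeR 4.0.16 (R 4.3.3): 19698 genes passed filterByExpr (at least 10 counts in enough libraries and 15 in total), library sizes carried TMM factors, and a single quasi-likelihood fit over all 9 libraries had 1 mean for each genotype. A gene was called where its p, adjusted by Benjamini-Hochberg over all tested genes, was under 0.05. Errors after a fold change are SE. Alternatives were other scalings, other filters, DESeq2 1.42.0, a replicate block, only 2 genotypes in the fit, and each library left out; leaving out wild-type replicate 3 with overexpression replicate 1, and leaving out AT4G38420, were chosen after seeing the data. Chi-square per degree of freedom between replicates was 2.52 to 7.65, so none was a copy of another. On simulated counts (19557 genes), 78% of genes changed 1.5-fold and 87% of those changed 2-fold were recovered for the mutant, with 15 of 180 calls false, and 77% and 91% for overexpression, with 19 of 187 false.

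Genes named were, per class and with at least 1 CPM in the higher group, up to 4 called with the largest change in the mutant, 3 in overexpression and 2 between the lines, the 2 with the highest FPKM, a list of members with known roles, and per pathway list up to 3 and 1 called genes. The 11 genes of the opposite pattern, the 4 abundant pectate lyases, members of neighbouring pairs, AT5G48900, PMEI10, PMEI2 and PMEI6 were in part named after their values were seen. The symbols PME34, HMS, PGX3 and BDX are from background knowledge and are not paired with these loci in the files.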

Additional observations from a re-analysis of the deposited data

How the results depend on the processing

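No called gene changed direction in any alternative run. The summed CPM of the pectinesterase inhibitors in overexpression against wild type, a log2 ratio of -0.27, turned to 0.39 without PMEI9, and sums near 0 changed sign over the alternatives: pectinesterases in overexpression (-0.07 to 0.03), and pectate lyases (-0.03 to 0.03) and acetylesterases (-0.04 to 0.01) in the mutant. Requiring a 2-fold change as well left 0 members higher and 13 lower in the mutant against wild type, 0 and 0 in overexpression against wild type, and 21 and 2 in overexpression against the mutant. For overexpression against wild type, 7 members were called higher with no low-count filter and 6 with only the 2 genotypes in the fit. Leaving out 1 library at a time gave 7 to 10 members higher and 32 to 40 lower in the mutant, 4 to 15 higher and 4 to 11 lower in overexpression against wild type, and 32 to 38 higher and 16 to 21 lower in overexpression against the mutant. Whichever library was left out, 36 of 48, 7 of 21 and 44 of 60 calls were kept. DESeq2 shared 46 of 48, 19 of 21 and 51 of 60 calls. The cause of the lower counts was not tested. Same-numbered libraries deviated from their group means with correlations of -0.21 to 0.10. With 3 libraries per group such values cannot settle whether same-numbered libraries were handled together, which the labels do not say. With the replicate block the counts were 8 and 39, 10 and 10, and 36 and 22.

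The data are 3 libraries per genotype from whole callus, with marker genes of epidermis, green leaf and phloem differing between genotypes. Low members rest on few counts, such as 0 to 7 for AT5G55720 in mutant libraries. Transcript levels say nothing of enzyme activity.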
